A study of Mus musculus with 18 samples.

Results

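The genes examined here encode the major histocompatibility complex (MHC) molecules that display peptides on the cell surface, together with the partners needed to build and express them. They were taken by symbol from a given list of 10 genes, which had been drawn up with earlier results of these data known, and each was matched to its Ensembl row of the gene count table. All 10 of the 10 were found among 38924 genes, and all 10 were among the 16577 genes with enough counts to be tested. The class I genes were the heavy chains *H2-K1*, *H2-D1* and *H2-T23*, the light chain *B2m* (beta-2 microglobulin) and the loading chaperone *Tapbp* (tapasin). The class II genes were the chains *H2-Aa*, *H2-Ab1* and *H2-Eb1*, the invariant chain *Cd74* and the coactivator *Ciita*.

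The libraries are described as primary fibroblasts of heart (HF), kidney (KF) and tail (TF). The donors are given as male Rosa mT/mG mice aged 10 weeks on a C57BL/6 background. Their cells carry a red fluorescent tdTomato reporter in the membrane. All of these cells had first grown in culture for 10 days. In the transplanted groups (HFs, KFs and TFs), 400000 to 500000 cells per graft were taken up in gelatin foam, placed below the capsule of a kidney in C57BL6/J recipients (syngeneic, aged 10 to 11 weeks), left for 3 days and recovered as CD45−;TdTomato+ cells. In the cultured groups (HFc, KFc and TFc), the cells left over after the grafts had been prepared were replated and kept in culture. The kidney was the host organ for cells of all 3 origins. Each of the 6 groups had 3 libraries, 18 in all. Whether the libraries of a group came from different donors or recipients is not given in the labels, so p-values measure the spread between these libraries only. The question addressed was how the antigen presentation genes of fibroblasts from each organ differed between the graft and the dish, and between organs in either state.

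As background, MHC class I molecules are made by nearly all nucleated cells and present peptides cut by the proteasome, pumped into the endoplasmic reticulum by the Tap transporter and loaded with the help of tapasin, and they are recognised by CD8 T cells. Class II molecules are made mainly by dendritic cells, macrophages and B cells, present peptides from the endosome after the invariant chain has been removed, and are recognised by CD4 T cells. Interferon gamma raises both classes through *Irf1*, with *Nlrc5* acting at class I and *Ciita* at class II promoters, and it can induce class II in cells such as fibroblasts that otherwise make little of it.

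Library totals lay between 17927838 and 32245168 counts, and levels are given as CPM, counts scaled to a common library size with TMM factors. A library was treated as having a gene above 3 counts, which corresponded to 0.0890 to 0.18 CPM. The library labelled KFs replicate 3 stood apart, and its sex-linked RNA was not that of the male donors described. Its summed level of 4 Y-linked genes was 0.722 CPM against at least 175 in each of the other 17 libraries, its *Xist* level was 1492 CPM against at most 0.404, and its summed kidney epithelium markers were 236 CPM against 27.9 and 23 in KFs replicates 1 and 2. The label of its counts, Kidney-Fibros, also differed in form from those of the other libraries, which carry an organ letter and a replicate number. This library was kept, and results that rest on it are also given without it. In HFs replicate 2 the summed proximal tubule markers were 948 CPM, against 112 and 63.4 in the other two HFs libraries. In bulk RNA, fewer cells of a type and less RNA per cell cannot be told apart.

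The 3 heavy chain genes, *Tapbp* and the 3 class II chain genes lie on mouse chromosome 17 (GRCm38, GENCODE release 21). *H2-K1* (ENSMUSG00000061232) lies at chr17:33996017-34000347 (- strand), *H2-D1* (ENSMUSG00000073411) at chr17:35262730-35267499 (+ strand), *H2-T23* (ENSMUSG00000067212) at chr17:36029773-36032855 (- strand) and *Tapbp* (ENSMUSG00000024308) at chr17:33915899-33929292 (+ strand). *H2-Aa* (ENSMUSG00000036594) lies at chr17:34282744-34287823 (- strand), *H2-Ab1* (ENSMUSG00000073421) at chr17:34257689-34269419 (+ strand) and *H2-Eb1* (ENSMUSG00000060586) at chr17:34305867-34316674 (+ strand). Of the other members, *B2m* (ENSMUSG00000060802) lies at chr2:122147686-122153083 (+ strand) and *Ciita* (ENSMUSG00000022504) at chr16:10480059-10528418 (+ strand), and *Cd74* (ENSMUSG00000024610) lies elsewhere. Counts are for whole genes, so no exon or transcript is resolved.

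Class I and class II promoters are known to share a module of X and Y boxes, through which *Nlrc5* and *Ciita* act, and class I promoters also hold a kappa B site and an interferon-stimulated response element. Promoter windows, from 250 bases before to 50 bases after the transcription start in RefSeq (GRCm38.p6), were found for 7 of the members. They were searched on both strands for ATTGG (the CCAAT or Y box), TGACG (the core of the X2 box), GAANNGAAA and GAAANNGAA (partial interferon elements) and GGGATTCCC (kappa B), letters that were chosen after the windows had been read. No match overlapped a match to another of these motifs. The windows of *H2-T23* and *Tapbp* were searched but are not shown. *H2-K1* and *H2-Aa* had the largest fitted changes of their class in each organ, while *B2m* and *H2-Eb1* did not. Windows are shown for *H2-K1* (chr17:34000298-34000597, minus strand), *H2-D1* (chr17:35262844-35263143, plus strand), *B2m* (chr2:122147437-122147736, plus strand), *H2-Aa* (chr17:34287774-34288073, minus strand) and *H2-Eb1* (chr17:34305617-34305916, plus strand). Every match is in capitals, and each window is read 5′ to 3′ on the strand of the gene.
H2-K1: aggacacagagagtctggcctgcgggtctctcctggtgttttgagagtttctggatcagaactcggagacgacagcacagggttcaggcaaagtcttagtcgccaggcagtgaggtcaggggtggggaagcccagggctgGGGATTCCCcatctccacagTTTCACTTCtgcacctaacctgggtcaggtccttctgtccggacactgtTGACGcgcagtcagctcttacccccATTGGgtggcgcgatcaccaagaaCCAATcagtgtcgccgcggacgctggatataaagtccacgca
H2-D1: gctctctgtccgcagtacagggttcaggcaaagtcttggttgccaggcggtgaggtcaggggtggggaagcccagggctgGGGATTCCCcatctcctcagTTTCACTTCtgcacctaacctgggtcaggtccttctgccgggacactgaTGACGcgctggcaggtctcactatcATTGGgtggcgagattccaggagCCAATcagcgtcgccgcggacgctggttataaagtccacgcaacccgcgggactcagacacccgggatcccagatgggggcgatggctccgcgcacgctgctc
B2m: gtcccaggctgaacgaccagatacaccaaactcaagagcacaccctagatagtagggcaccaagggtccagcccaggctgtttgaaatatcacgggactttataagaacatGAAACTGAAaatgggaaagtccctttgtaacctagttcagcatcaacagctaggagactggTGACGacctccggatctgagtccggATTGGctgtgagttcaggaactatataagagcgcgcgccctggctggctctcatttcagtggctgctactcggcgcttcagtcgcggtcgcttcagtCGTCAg
H2-Aa: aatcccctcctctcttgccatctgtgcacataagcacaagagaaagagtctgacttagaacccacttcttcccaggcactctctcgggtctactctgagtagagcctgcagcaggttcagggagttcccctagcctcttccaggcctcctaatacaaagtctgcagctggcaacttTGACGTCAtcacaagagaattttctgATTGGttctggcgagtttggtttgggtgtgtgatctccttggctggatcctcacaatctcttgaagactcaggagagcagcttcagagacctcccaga
H2-Eb1: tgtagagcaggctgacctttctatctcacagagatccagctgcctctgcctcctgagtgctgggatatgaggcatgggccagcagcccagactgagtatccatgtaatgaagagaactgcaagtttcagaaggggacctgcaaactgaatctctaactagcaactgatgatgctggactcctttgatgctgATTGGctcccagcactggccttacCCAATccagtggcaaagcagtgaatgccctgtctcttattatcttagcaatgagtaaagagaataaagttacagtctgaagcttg

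ATTGG was in all 7 member windows and in 37.4% of the 32851 promoter windows of the table. TGACG was in 4 of the 7 (*H2-K1*, *H2-D1*, *B2m* and *H2-Aa*) and in 20.8% of all windows. In *H2-K1*, *H2-D1* and *B2m* the first letter of ATTGG lay 25 bases after the first letter of TGACG, and in *H2-Aa* it lay 26 bases after it. The sequence GGGATTCCC was in 2 of the 7, *H2-K1* and *H2-D1*, and in 0.353% of all windows. In both of these windows GAANNGAAA followed it at 20 bases and TGACG followed that at 49 bases. GAANNGAAA was in 7.52% of all windows, and GAAANNGAA, which was in the *B2m* and *H2-T23* windows, in 8.56%. *H2-Aa* held 2 matches to TGACG, and the distance of 26 is from the first of them. These are matches of letters and not measured binding sites.

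In heart and tail cells most of the class I and class II genes were higher in the graft than in the dish. In kidney cells the class II genes, *H2-K1* and *H2-T23* were called higher. There *H2-D1* and *B2m* overlapped between graft and dish, and *Tapbp* was under the fold limit given below. At an adjusted p under 0.05 and a log2 fold change above 1 (edgeR quasi-likelihood test, Benjamini-Hochberg adjustment over all genes tested), 9 of the 10 members rose in HFs against HFc, where 18.3% of all genes tested were called higher. In KFs against KFc 7 of the 10 rose, where 14.7% of all genes were called higher, and in TFs against TFc 8 of the 10, where 11.0% were. No member fell in any of the 3 comparisons. *H2-Aa* and *Ciita* had passed the filter on low counts through the grafts alone, so their place among the genes tested depended on being higher there. The counts above include *H2-Aa* in the 3 organs and *Ciita* in heart and kidney, and these calls should not be read as support. Both are also part of the counts without overlap below. The median fitted log2 fold change of the members was 3.28 in heart, 2.18 in kidney and 2.42 in tail cells, beside medians over all genes of 0.05, 0.09 and 0. With the genes that were undetected in culture set at their lower bound, the member medians were 2.42 in heart, 1.95 in kidney and 2.42 in tail cells. The 3 transplanted libraries lay above the 3 cultured ones without overlap for 10 members in heart, 7 in kidney and 9 in tail cells, beside 33.3%, 26.2% and 29.3% of all genes tested.

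**Figure D1:**
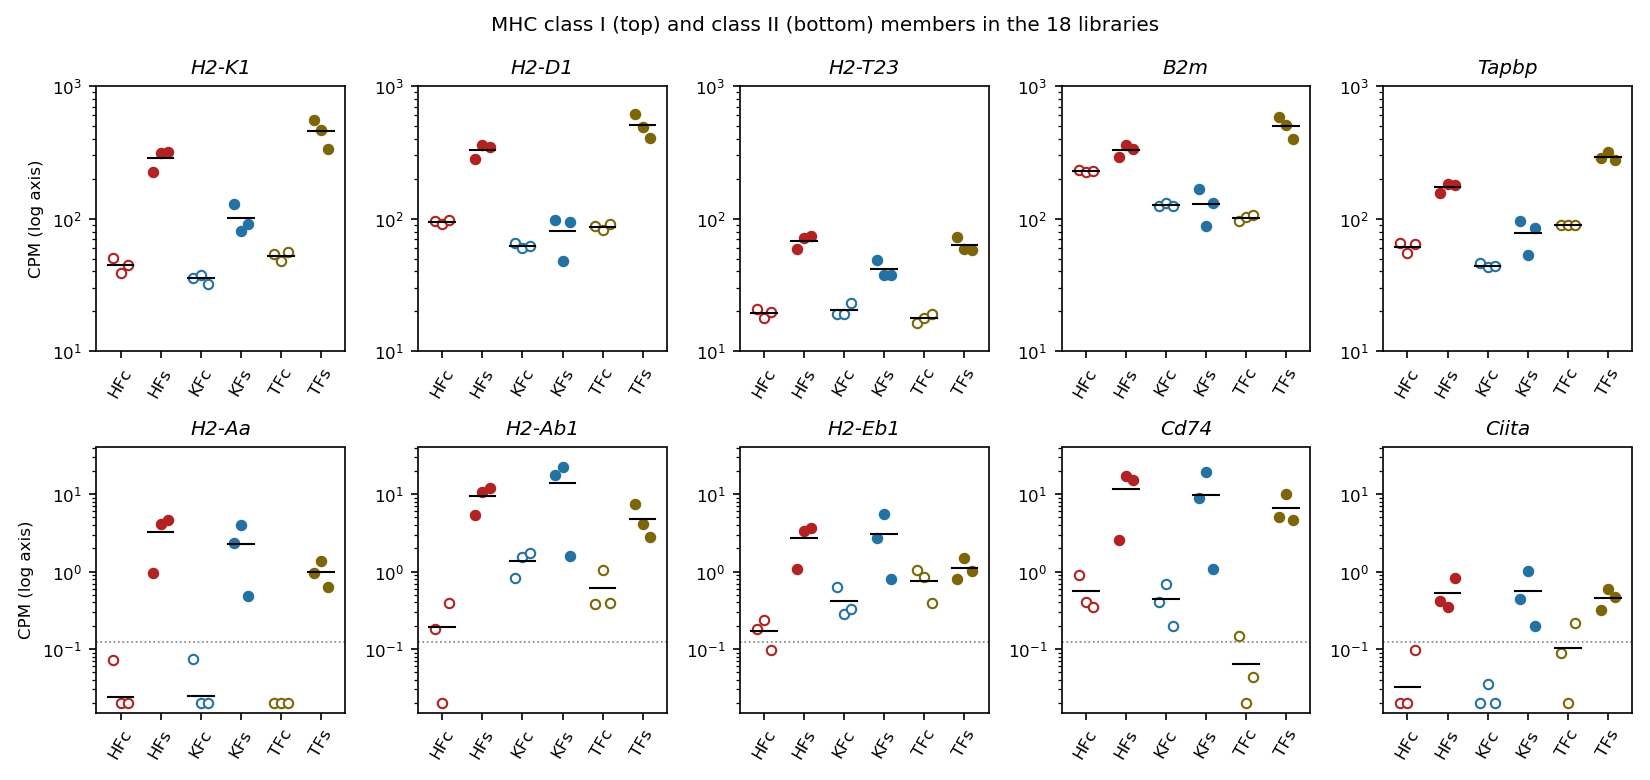
Level of each member in the 18 libraries, in CPM on a log axis, with class I genes in the top row and class II genes in the bottom row. Open points are cultured and filled points transplanted libraries, black lines are group means of 3 libraries, the dotted line is the mean level of 3 counts (0.122 CPM), and libraries with 0 counts are drawn at 0.02 CPM. Class I genes were well detected in every library, whereas *H2-Aa* was at or under 3 counts in all 9 cultured libraries and above it in all 9 transplanted libraries.

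*H2-K1*, a classical class I heavy chain, had 50.6, 38.6 and 45.1 CPM in the HFc libraries and 223, 314 and 315 CPM in the HFs libraries. Its levels were 36.0, 37.8 and 32.4 CPM in KFc and 129.6, 81.0 and 91.1 CPM in KFs, and 54.5, 48.0 and 55.6 CPM in TFc and 559, 468 and 338 CPM in TFs. The lowest transplanted library was above the highest cultured library of its organ in each case, and the 3 cultured groups lay close together while the 3 transplanted groups were spread widely, with TFs highest and KFs lowest. Its log2 fold change was 2.67 ± 0.21 (SE; adjusted p = 7.34e-08) in heart, 1.51 ± 0.20 (SE; adjusted p = 1.9e-05) in kidney and 3.11 ± 0.21 (SE; adjusted p = 6.11e-08) in tail cells.

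*H2-D1*, the other classical heavy chain measured, had 96.6, 91.0 and 97.0 CPM in HFc and 284, 357 and 349.7 CPM in HFs, and 88.5, 81.7 and 90.5 CPM in TFc and 616, 489 and 406 CPM in TFs. In kidney cells it had 66.0, 59.8 and 62.1 CPM in culture and 98.0, 47.6 and 94.6 CPM after transplantation, so that the groups overlapped and KFs replicate 2 lay below every KFc library. The log2 fold change was 1.80 ± 0.21 (SE; adjusted p = 3.92e-06) in heart and 2.54 ± 0.22 (SE; adjusted p = 4.87e-07) in tail cells, and 0.35 ± 0.21 (SE; adjusted p = 0.168) in kidney cells, which was not called.

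*H2-T23*, which encodes the nonclassical molecule Qa-1, had 20.7, 17.9 and 19.8 CPM in HFc, 19.2, 19.0 and 23 CPM in KFc and 16.4, 17.7 and 19.2 CPM in TFc. After transplantation it had 59.5, 70.9 and 73.6 CPM in HFs, 48.7, 37.7 and 37.9 CPM in KFs and 72.6, 59.2 and 57.6 CPM in TFs. The groups of each organ did not overlap, and the HFs and TFs libraries overlapped each other while the KFs libraries lay below both. The log2 fold change was 1.81 ± 0.13 (SE; adjusted p = 4.03e-08) in heart, 1.02 ± 0.13 (SE; adjusted p = 1.26e-05) in kidney and 1.83 ± 0.13 (SE; adjusted p = 1e-07) in tail cells. The kidney value lay just above the fold limit and passed under it without 1 library, at 0.97, 0.97 and 0.89, without KFc replicate 1, KFc replicate 2 and KFs replicate 1, and also with no filter on low counts and with a minimum mean of 10 counts (0.99 in both fits).

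*B2m*, the light chain shared by all class I heavy chains, differed among organs already in culture, with 233, 223 and 229 CPM in HFc, 125, 131 and 124 CPM in KFc and 96.8, 103 and 106 CPM in TFc. In grafts it had 291, 357 and 338 CPM in HFs, 167, 88.4 and 132 CPM in KFs and 585, 512 and 402 CPM in TFs. The tail groups were far apart, the heart groups were apart by less, and the KFs libraries lay on both sides of the KFc libraries. It rose in tail cells, with a log2 fold change of 2.29 ± 0.18 (SE; adjusted p = 2.28e-07). In heart cells it was 0.52 ± 0.17 (SE; adjusted p = 0.0174), under the fold limit, and in kidney cells 0.02 ± 0.17 (SE; adjusted p = 0.921).

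*Tapbp*, which bridges the empty class I molecule to the peptide transporter, had 65.2, 54.8 and 64.8 CPM in HFc and 157, 183 and 178 CPM in HFs. It had 46.0, 43.2 and 43.7 CPM in KFc and 96.8, 53.6 and 84.6 CPM in KFs, and 89.1, 89.8 and 89.5 CPM in TFc and 285, 319 and 278 CPM in TFs. Groups did not overlap in any organ. The log2 fold change was 1.49 ± 0.15 (SE; adjusted p = 1.25e-06) in heart and 1.71 ± 0.16 (SE; adjusted p = 8.84e-07) in tail cells, and the value of 0.82 ± 0.15 (SE; adjusted p = 0.00042) in kidney cells was under the fold limit.

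**Figure D2:**
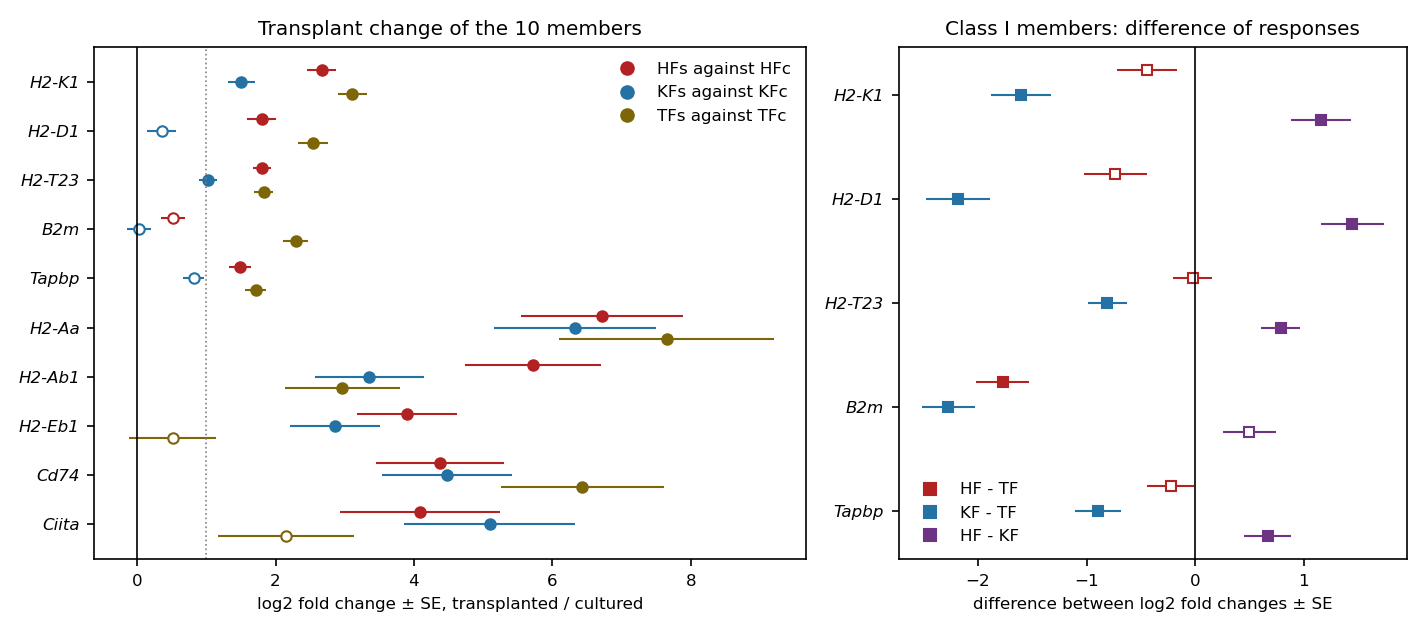
Left, log2 fold change of the 10 members in transplanted against cultured cells of heart (red), kidney (blue) and tail (brown), with SE bars; filled points passed an adjusted p of 0.05 and the fold limit, drawn as a dotted line at 1. Right, for the class I members, the difference between the log2 fold changes of 2 organs with SE bars, filled where the adjusted p was under 0.05. The fitted values of *H2-Aa* in the 3 organs and of *Ciita* in heart and kidney depend on the prior count, since their cultured groups were at or under 3 counts. All 5 class I genes had a smaller change in kidney than in tail cells.

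The class II genes had far lower levels. *H2-Aa*, the alpha chain of I-A, had 2, 0 and 0 counts in the HFc libraries, 2, 0 and 0 counts in KFc and no counts in any TFc library. After transplantation it had 16, 92 and 121 counts in HFs (0.962, 4.05 and 4.59 CPM), 57, 126 and 12 counts in KFs (2.30, 4.04 and 0.481 CPM) and 18, 30 and 15 counts in TFs (0.963, 1.36 and 0.636 CPM). Every transplanted library was above every cultured library, and HFs replicate 1 and KFs replicate 3 were the lowest of their groups. Measured against a floor of 3 counts in each cultured library, the mean level was at least 26.8-fold higher in HFs, at least 21.6-fold higher in KFs and at least 8.76-fold higher in TFs. Without KFs replicate 2 the kidney bound was 13.2-fold. The adjusted p was 0.000276 in heart, 0.000552 in kidney and 0.00166 in tail cells.

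*H2-Ab1*, the beta chain that pairs with *H2-Aa*, had 5, 0 and 8 counts in HFc and 90, 241 and 319 in HFs. It had 22, 44 and 52 counts in KFc and 437, 709 and 40 in KFs, and 13, 27 and 9 counts in TFc and 140, 91 and 65 in TFs. The heart and tail groups did not overlap, but KFs replicate 3, at 1.60 CPM, lay within the KFc range of 0.820 to 1.73 CPM. The log2 fold change was 5.72 ± 0.98 (SE; adjusted p = 0.000157) in heart, 3.35 ± 0.79 (SE; adjusted p = 0.00239) in kidney and 2.96 ± 0.83 (SE; adjusted p = 0.0107) in tail cells. Without KFs replicate 3 the kidney value was 3.84 (adjusted p = 1.67e-05). The heart value was 5.05 without HFc replicate 2 and 6.65 without HFc replicate 3, and the tail value 3.58 without TFc replicate 2.

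*H2-Eb1*, the beta chain of I-E, was not called in tail cells. It had 35, 22 and 9 counts in TFc and 15, 33 and 24 counts in TFs, or 1.04, 0.863 and 0.395 against 0.803, 1.50 and 1.02 CPM, and these groups overlapped. In heart cells it had 5, 7 and 2 counts in culture and 18, 75 and 97 in grafts, and in kidney cells 17, 8 and 10 and 67, 173 and 20, without overlap in either organ. The log2 fold change was 3.90 ± 0.72 (SE; adjusted p = 0.000291) in heart, 2.86 ± 0.66 (SE; adjusted p = 0.00206) in kidney and 0.52 ± 0.63 (SE; adjusted p = 0.541) in tail cells. Without KFs replicate 2 the kidney value was 2.03 (adjusted p = 0.016).

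*Cd74*, the invariant chain that guides class II molecules to the endosome, had 25, 12 and 7 counts in HFc and 43, 392 and 402 in HFs. It had 11, 20 and 6 counts in KFc and 219, 603 and 27 in KFs, and 5, 0 and 1 counts in TFc and 94, 224 and 109 in TFs. No organ's groups overlapped in CPM, and again HFs replicate 1 and KFs replicate 3 were the lowest of the transplanted libraries. The log2 fold change was 4.38 ± 0.93 (SE; adjusted p = 0.000912) in heart, 4.48 ± 0.94 (SE; adjusted p = 0.00107) in kidney and 6.43 ± 1.18 (SE; adjusted p = 0.000538) in tail cells, the last from a cultured group in which only replicate 1 was above 3 counts. The kidney value was 3.46 (adjusted p = 0.00533) without KFs replicate 2, and the tail value 8.0 without TFc replicate 1.

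*Ciita*, the coactivator that switches on class II transcription, was near the limit of detection. It had 0, 0 and 2 counts in HFc and 7, 8 and 22 in HFs, 0, 1 and 0 in KFc and 11, 32 and 5 in KFs, and 3, 0 and 5 in TFc and 6, 13 and 11 in TFs. All transplanted libraries were above the cultured libraries of the same organ in CPM. Its level was at least 4.49-fold higher in HFs (adjusted p = 0.00707) and at least 5.28-fold higher in KFs (adjusted p = 0.00303), and in tail cells the log2 fold change was 2.15 ± 0.98 (SE; adjusted p = 0.0931), which was not called. Without KFs replicate 2 the kidney bound was 3.06-fold.

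Per kilobase of exon, the members covered a wide range of levels, and their order was not the same in all groups. In TFs, *B2m* had 581 ± 107 CPM per kilobase (SD, n = 3), *H2-D1* 195 ± 41.0, *H2-K1* 155 ± 37.9, *Tapbp* 80.9 ± 6.09 and *H2-T23* 21.9 ± 2.86. The order of the class II genes in TFs was *Cd74* at 3.94 ± 1.84, *H2-Ab1* at 1.87 ± 0.948, *H2-Eb1* at 0.569 ± 0.184, *H2-Aa* at 0.260 ± 0.0959 and *Ciita* at 0.0482 ± 0.0142 CPM per kilobase. In this order the mean ± SD ranges overlapped for *H2-D1* and *H2-K1* and for *Cd74* and *H2-Ab1*, and for no other neighbours. In HFc, *H2-D1* had 36.8 ± 1.29 CPM per kilobase, while *Tapbp* at 17 ± 1.64 and *H2-K1* at 15.2 ± 2.05 overlapped. In TFc, *Tapbp* at 24.7 ± 0.0930 was above *H2-K1* at 17.9 ± 1.41. Among the class II genes of TFc, *H2-Eb1* was at 0.394 ± 0.171, *H2-Ab1* at 0.239 ± 0.150 and *Cd74* at 0.0382 ± 0.0454 CPM per kilobase. *B2m* led in all 6 groups. In KFs the highest class II gene, *Cd74*, had 5.81 ± 5.45 CPM per kilobase against 14.3 ± 2.17 for *H2-T23*, the lowest of the class I members.

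The level of *B2m* relative to the 3 heavy chain members also differed between dish and graft. Other class I heavy chains, such as *H2-Q4*, were not part of this ratio. The ratio of *B2m* to the sum of *H2-K1*, *H2-D1* and *H2-T23*, all in CPM per kilobase, was 4.53 ± 0.19 (SD, n = 3) in HFc, 3.40 ± 0.15 in KFc and 2.05 ± 0.15 in TFc. In the grafts it was 1.55 ± 0.09 in HFs, 1.87 ± 0.11 in KFs and 1.57 ± 0.06 in TFs. The cultured groups covered a wide range and the transplanted groups a narrow one, and in each organ all 3 cultured libraries were above all 3 transplanted libraries (two-sided exact permutation test, p = 0.1, the smallest that 3 against 3 allows).

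**Figure D3:**
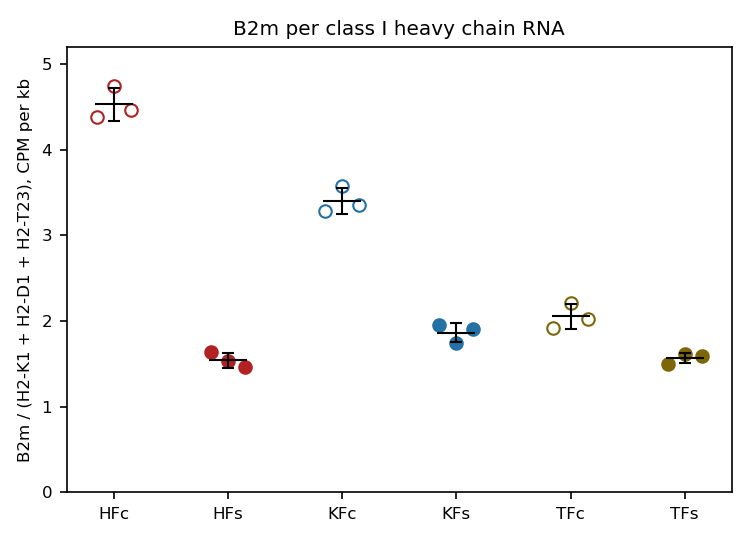
Ratio of *B2m* to the summed heavy chains *H2-K1*, *H2-D1* and *H2-T23*, each in CPM per kilobase, in the 18 libraries. Open points are cultured and filled points transplanted libraries, and black bars are group means ± SD of 3 libraries. The cultured libraries lie between 1.92 and 4.75 and the transplanted libraries between 1.46 and 1.96.

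Between organs in culture, calls were made at an adjusted p under 0.05 alone. The counts of members called were near or below the shares of all genes called, with 1 exception. This was HFc against KFc, where 3 of 10 members were higher beside 15.1% of all genes. In HFc against TFc, *B2m* was higher, with a log2 fold change of 1.17 ± 0.17 (SE; adjusted p = 6.51e-05), where 20.9% of all genes tested were higher. *Tapbp*, at -0.54 ± 0.15 (SE; adjusted p = 0.00974), and *H2-Eb1*, at -2.10 ± 0.72 (SE; adjusted p = 0.0284), were lower, where 21.0% of all genes were lower. The *H2-Eb1* call was lost, at adjusted p of 0.0614 to 0.0937, without HFc replicate 1, HFc replicate 3, TFc replicate 1 or TFc replicate 2. The *Tapbp* call was lost, at an adjusted p of 0.0501, without HFc replicate 2.

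In KFc against TFc, *Tapbp* was lower at -1.01 ± 0.15 (SE; adjusted p = 0.000111) and *H2-K1* at -0.57 ± 0.20 (SE; adjusted p = 0.0324) on the log2 scale, where 18.5% of all genes were lower. Leaving out any 1 of the 6 libraries ended the *H2-K1* call (adjusted p 0.0521 to 0.107). When only these groups were fitted, *H2-D1* (lower), *B2m* (higher) and *H2-T23* (higher) were called too, with adjusted p of 1.12e-06, 2.39e-06 and 0.0496. In HFc against KFc, *B2m* (0.85, adjusted p = 0.00164), *H2-D1* (0.60, adjusted p = 0.0389) and *Tapbp* (0.47, adjusted p = 0.0288) were higher, where 15.1% of all genes were, and *H2-Ab1* (-2.94, adjusted p = 0.0386) was lower, where 14.0% were. The *H2-D1* call did not hold when any 1 of the 6 libraries was left out, the *Tapbp* call held only without HFc replicate 2, and the *H2-Ab1* call was lost without HFc replicate 1, HFc replicate 2, KFc replicate 2 or KFc replicate 3. The *H2-Ab1* value was -2.28 without HFc replicate 2 and -3.88 without HFc replicate 3. *B2m* kept its call in each of these fits. With library size alone, with no filter and with a minimum mean of 10 counts, *H2-D1* (adjusted p 0.0554 to 0.0973) and *Tapbp* (adjusted p 0.0503 to 0.097) were not called.

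Between organs after transplantation, class I levels were lowest in KFs. All 5 were lower in KFs than in TFs, where 13.8% of all genes were lower, with log2 fold changes of -2.66 ± 0.22 (SE; adjusted p = 6e-07) for *H2-D1*, -2.18 ± 0.20 (SE; adjusted p = 1.96e-06) for *H2-K1*, -1.95 ± 0.18 (SE; adjusted p = 1.64e-06) for *B2m*, -1.91 ± 0.16 (SE; adjusted p = 6e-07) for *Tapbp* and -0.61 ± 0.13 (SE; adjusted p = 0.00225) for *H2-T23*. All 5 were higher in HFs than in KFs, where 14.2% of all genes were higher, by 2.04 for *H2-D1*, 1.50 for *H2-K1*, 1.35 for *B2m*, 1.14 for *Tapbp* and 0.72 for *H2-T23* (largest adjusted p = 0.000605). These 10 calls were also made without KFs replicate 3, and that of *H2-T23* against TFs was lost when only these groups were fitted (adjusted p = 0.0712).

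Of the class I genes, 4 were lower in HFs than in TFs, where 12.7% of all genes were lower, namely *Tapbp* (-0.77, adjusted p = 0.00178), *H2-K1* (-0.68, adjusted p = 0.0191), *B2m* (-0.61, adjusted p = 0.0186) and *H2-D1* (-0.61, adjusted p = 0.0415). *H2-T23* was at 0.11 (adjusted p = 0.596). Only 1 of these calls, that of *Tapbp*, was left without HFs replicate 1, without TFs replicate 1 or without TFs replicate 2, 2 were left without HFs replicate 3, and the *H2-D1* call was also lost without HFs replicate 2. The *H2-K1* call was lost when only these groups were fitted (adjusted p = 0.0646) and the *H2-D1* call with DESeq2 size factors (adjusted p = 0.0558). No class II member was called between transplanted organs. Without KFs replicate 3, *H2-Ab1* at 2.09 (adjusted p = 0.00352) and *H2-Eb1* at 1.89 (adjusted p = 0.0112) were called higher in KFs than in TFs, against 1.55 (adjusted p = 0.123) and 1.45 (adjusted p = 0.0914) with it.

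The responses themselves, that is the log2 fold changes of grafts over dishes, were compared between organs by an interaction contrast. The 3 contrasts share their libraries and are not independent of each other. The response in kidney cells was smaller than in tail cells for all 5 class I genes, where 6.07% of all genes were lower, with differences of -2.27 ± 0.25 (SE; adjusted p = 6.2e-05) for *B2m*, -2.18 ± 0.29 (SE; adjusted p = 0.000298) for *H2-D1*, -1.60 ± 0.28 (SE; adjusted p = 0.00191) for *H2-K1*, -0.89 ± 0.22 (SE; adjusted p = 0.0146) for *Tapbp* and -0.81 ± 0.18 (SE; adjusted p = 0.00973) for *H2-T23*. Against kidney cells, the response in heart cells was larger for 4, where 10.7% of all genes were higher, with 1.45 ± 0.29 (SE; adjusted p = 0.00206) for *H2-D1*, 1.16 ± 0.28 (SE; adjusted p = 0.00624) for *H2-K1*, 0.79 ± 0.18 (SE; adjusted p = 0.00501) for *H2-T23* and 0.67 ± 0.22 (SE; adjusted p = 0.0321) for *Tapbp*. The *Tapbp* call was lost without HFc replicate 2 or any 1 of the KFc libraries, and with scaling by library size alone (adjusted p = 0.0841) or only the groups compared (adjusted p = 0.0641). *B2m*, at 0.50 (adjusted p = 0.15), was called only without KFs replicate 1 (0.72, adjusted p = 0.0184).

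Between heart and tail cells 2 of the 10 members were called, 1 lower and 1 higher. As counts these are near the shares of all genes given here. The response of *B2m* was smaller in heart cells, at -1.77 ± 0.25 (SE; adjusted p = 0.00014), where 12.7% of all genes were lower, and that of *H2-Eb1* was larger, at 3.38 ± 0.95 (SE; adjusted p = 0.0181), where 10.1% of all genes were higher. For *H2-K1* the difference was -0.44 (adjusted p = 0.271), for *H2-T23* -0.02 (adjusted p = 0.958) and for *Tapbp* -0.23 (adjusted p = 0.488). *H2-D1*, at -0.74 (adjusted p = 0.0793), was called without TFs replicate 3 (adjusted p = 0.0484), and it and *H2-Ab1* were called when only these groups were fitted (adjusted p = 0.00881 and 0.0375). In kidney against tail cells the *H2-Eb1* response differed by 2.34 (adjusted p = 0.108), and without KFs replicate 3 it was called, at 2.77 (adjusted p = 0.0161).

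Other genes of the pathway were read from lists chosen with earlier results of these data in view. Counts of called genes on these lists stand beside 18.3% of all genes called higher and 9.33% called lower in heart, 14.7% and 7.99% in kidney, and 11.0% and 5.53% in tail cells. Of the other class I genes, 12 of 16 were tested, of which 8 rose in heart, 5 in kidney and 7 in tail cells, with median log2 fold changes of 1.64, 0.87 and 1.32. *H2-Q4*, a nonclassical heavy chain of the Q region, had a mean of 49.3 CPM in HFc and 146 in HFs, 47.5 in KFc and 115 in KFs, and 49.8 in TFc and 219 in TFs, and rose in the 3 organs. Its kidney change passed just under the fold limit without KFs replicate 3 (log2 fold change 0.998). *H2-Q7* and *H2-Q6* also rose in the 3 organs, by 5.13 and 4.67 on the log2 scale in tail cells (4.37 and 4.01 without TFs replicate 1), but 17% and 17.9% of the 75-base stretches of their transcripts occur in another gene too, so their separate values are uncertain. For the members this share was 5.91% in *H2-T23*, 5.40% in *H2-D1*, 3.10% in *H2-K1*, 1.10% in *Tapbp* and 0 in the others.

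Of the genes that cut, transport and load class I peptides, all 13 on the list were tested, and 4 rose in heart, 3 in kidney and 7 in tail cells, with medians of 0.48, 0.24 and 1.02. *Psmb8*, an immunoproteasome subunit, had 2.77, 1.08 and 2.75 CPM in HFc and 20.9, 19.9 and 21.5 in HFs, with a log2 fold change of 3.25 ± 0.26 (SE; adjusted p = 1.04e-07), and it rose by 1.89 ± 0.24 (SE; adjusted p = 1.35e-05) in kidney and 2.95 ± 0.24 (SE; adjusted p = 3.8e-07) in tail cells. *Psmb10*, another such subunit, and *Erap1*, the aminopeptidase that trims peptides, also rose in the 3 organs, although the heart value of *Psmb10* lay just under the fold limit, at 0.99, without HFc replicate 3. *Tap1*, a subunit of the peptide transporter, rose in tail cells, from 23.5, 25.9 and 20.4 to 68.8, 63.4 and 47.0 CPM, with a log2 fold change of 1.36 ± 0.22 (SE; adjusted p = 0.00017). Its values were 0.58 ± 0.22 (SE; adjusted p = 0.0306) in heart and 0.14 ± 0.21 (SE; adjusted p = 0.611) in kidney cells, neither of which was called.

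For the genes that load class II peptides, calls went in both directions. Of 13 listed genes 7 were tested, of which 2 rose and 1 fell in heart, 1 rose and 2 fell in kidney, and 0 rose and 2 fell in tail cells. The heart count of 2 was 1 without HFs replicate 3 or any 1 of the HFc libraries. *H2-DMa*, the alpha chain of the peptide editor H2-M, fell in each organ, from 2.95, 2.2 and 1.28 CPM in HFc to 0.962, 0.617 and 0.759 in HFs, from 3.36, 2.58 and 3.36 in KFc to 1.13, 1.76 and 1.12 in KFs, and from 3.83, 3.57 and 5.00 in TFc to 1.55, 1.50 and 1.53 in TFs. The adjusted p was 0.0011, 0.00404 and 0.00172. Its partner *H2-DMb1* fell in kidney, at -1.15 ± 0.24 (SE; adjusted p = 0.00118), and in tail cells, at -1.31 ± 0.24 (SE; adjusted p = 0.000558), and was at 0.43 ± 0.27 (SE; adjusted p = 0.183) in heart cells. *H2-DMb2*, another beta chain, rose by 2.15 ± 0.55 (SE; adjusted p = 0.00391) in heart and 1.63 ± 0.53 (SE; adjusted p = 0.0198) in kidney cells, the latter not without KFs replicate 3, KFc replicate 1 or KFc replicate 2 (adjusted p = 0.0896, 0.0848 and 0.0755), and at 2.80 without KFc replicate 3.

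Among 15 genes of class I and II transcription, 5 rose in heart, 2 rose and 1 fell in kidney, and 6 rose in tail cells. The kidney count is near the 14.7% of all genes. Without HFc replicate 2 the heart count was 3, and without KFs replicate 1 the kidney count of genes that rose was 1. *Irf1* rose in heart, kidney and tail cells, by 2.49 ± 0.21 (SE; adjusted p = 1.36e-07), 2.48 ± 0.20 (SE; adjusted p = 2.04e-07) and 2.41 ± 0.20 (SE; adjusted p = 4.05e-07) on the log2 scale. *Nlrc5*, the coactivator of class I, had 1.63, 2.63 and 2.54 CPM in TFc and 20.9, 19.2 and 13.2 in TFs, and rose there by 2.97 ± 0.57 (SE; adjusted p = 0.000804). In heart cells it rose by 1.39 ± 0.55 (SE; adjusted p = 0.0415), a call that held only without HFc replicate 1 among the fits that left out 1 library (adjusted p 0.0512 to 0.151 in the others), and in kidney cells it had 2.68, 1.95 and 1.4 CPM in KFc and 2.79, 0.994 and 8.86 in KFs. The high KFs library was replicate 3, and the kidney log2 fold change was 1.06 ± 0.56 (SE; adjusted p = 0.128) with it and -0.15 without it, while without KFs replicate 2 it was called, at 1.48 (adjusted p = 0.0129). *Rfx5*, which binds the X box in front of both classes, was at 0.77 ± 0.16 (SE; adjusted p = 0.000695), 0.59 ± 0.16 (SE; adjusted p = 0.00582) and 0.33 ± 0.16 (SE; adjusted p = 0.1), under the fold limit in the 3 organs. *Irf8*, a factor of myeloid cells, rose in heart and tail cells and fell in kidney cells. The tail call was lost without TFc replicate 2, TFc replicate 3, TFs replicate 1 or TFs replicate 2 (adjusted p 0.0529 to 0.131).

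**Figure D4:**
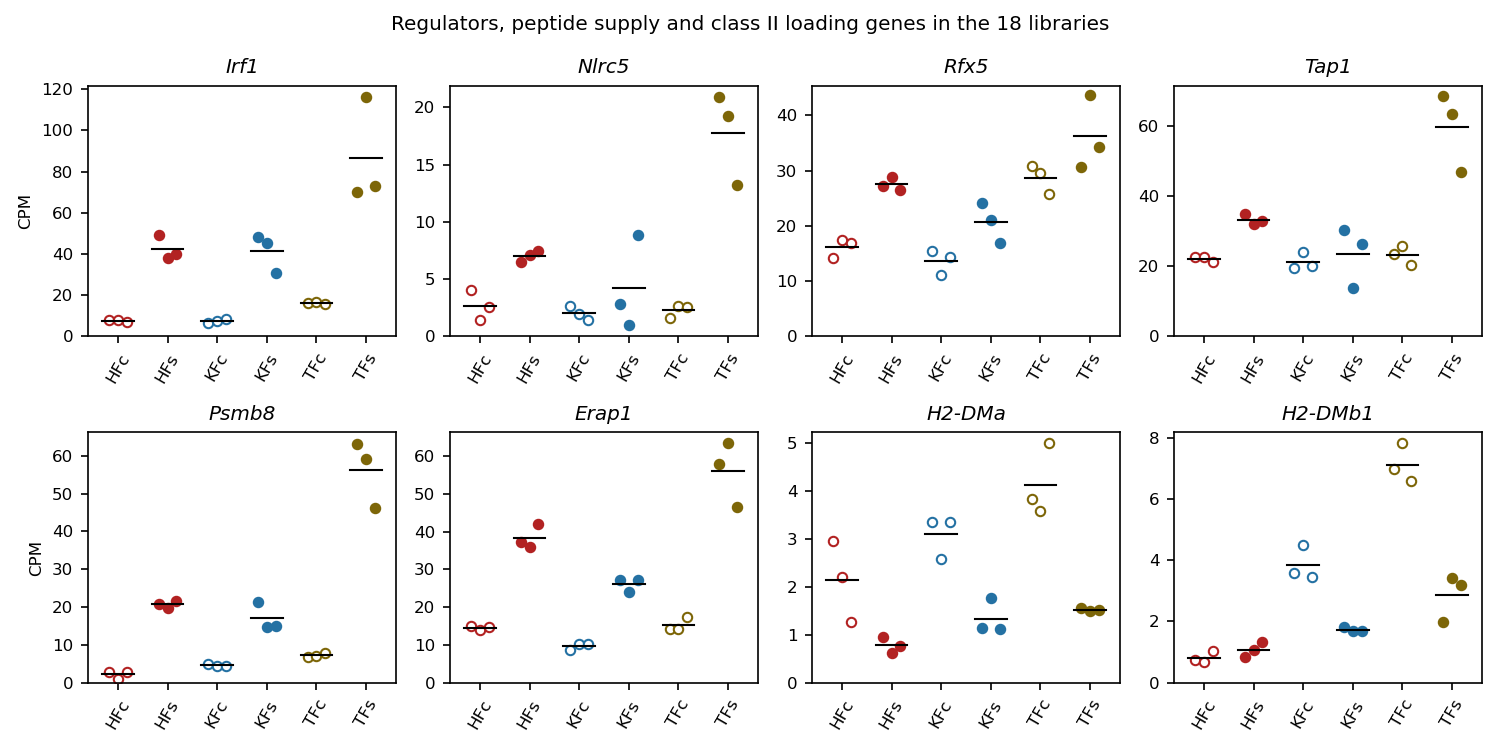
Level in CPM of the regulators *Irf1*, *Nlrc5* and *Rfx5*, the class I peptide supply genes *Tap1*, *Psmb8* and *Erap1* and the class II loading genes *H2-DMa* and *H2-DMb1* in the 18 libraries. Open points are cultured and filled points transplanted libraries, and black lines are group means of 3 libraries. TFs libraries are highest for *Nlrc5*, *Tap1*, *Psmb8* and *Erap1*, whereas *H2-DMa* lies lower in grafts than in dishes of each organ.

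Of the tested genes on the interferon gamma list, 11 of 16 rose in heart, 10 in kidney and 12 in tail cells, with medians of 1.80, 1.50 and 2.32. Those named by rule were *Jak2* (a kinase of the receptor), *Socs3* (a feedback inhibitor) and *Gbp2* (a guanylate-binding protein), the last at 3.47 ± 0.32 (SE; adjusted p = 1.06e-06) in tail and 1.52 ± 0.30 (SE; adjusted p = 0.000711) in kidney cells. *Ifng* itself had at most 2 counts in any library. Of 11 tested genes on the type I interferon list, 5 rose in heart, 6 in kidney and 9 in tail cells, with medians of 1.00, 1.43 and 4.67. They include *Irf7*, at 4.67 ± 0.47 (SE; adjusted p = 2.6e-06) in tail and 2.53 ± 0.43 (SE; adjusted p = 0.000139) in heart cells, and *Oasl2* and *Ifit1*, which rose in the 3 organs. Without KFs replicate 1 the kidney count was 3, and *Ifit1* was not called there (adjusted p = 0.124). Of 10 tested costimulation and checkpoint ligands, 5 rose and 1 fell in heart, 2 rose and 1 fell in kidney, and 3 rose in tail cells. *Tnfsf9*, a costimulatory ligand of the TNF family, rose in each organ, *Cd276* rose in heart and kidney cells, and *Vsir* rose in heart and fell in kidney cells, the latter not without KFs replicate 3. The 1 ligand that fell in heart cells was not called without HFs replicate 1. The kidney counts of 2 and 1 are near the shares of all genes called.

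Leukocytes are the usual source of class II RNA, and their markers were read in every library. *H2-Aa*, *H2-Ab1*, *H2-Eb1* and *Cd74* together had 0.643 to 1.35 CPM in HFc and 10.0 to 35.7 in HFs, 1.94 to 2.51 in KFc and 3.97 to 51.6 in KFs, and 0.833 to 1.92 in TFc and 9.03 to 17.2 in TFs. The 14 macrophage and monocyte markers together had 119.8 to 139 CPM in HFc and 109.5 to 181 in HFs, 548 to 597 in KFc and 13.5 to 164 in KFs, and 207 to 238 in TFc and 44.1 to 51.9 in TFs. In kidney and tail cells, these markers were lower in every graft library than in every dish library, and class II RNA was higher in every graft library. The graft cells had been sorted as CD45−, and no such sort is described for the replated dish cells. Effects of sorting and of transplantation on these markers therefore cannot be told apart. Of the 14, 11 fell in kidney and 9 in tail cells, and none was called in heart cells, beside 7.99%, 5.53% and 9.33% of all genes called lower in kidney, tail and heart cells.

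*Csf1r*, a receptor of macrophages, fell, with log2 fold changes of -2.88 (adjusted p = 6.76e-08) in kidney and -2.47 (adjusted p = 7.36e-07) in tail cells, and *Adgre1*, which encodes F4/80, with -3.49 (adjusted p = 0.000541) and -2.28 (adjusted p = 0.0129). The *Adgre1* value was -4.56 in kidney cells without KFs replicate 1, and its tail call was lost without TFs replicate 1 (adjusted p = 0.0513). *Ptprc*, which encodes the CD45 used for sorting, was still counted in grafts, with 62, 179 and 307 counts in HFs, 176, 270 and 6 in KFs and 77, 84 and 86 in TFs. Its cultured counts were 147, 160 and 111 in HFc, 398, 450 and 454 in KFc and 129, 136 and 119 in TFc. *Ptprc* was called in no organ (adjusted p = 0.495, 0.0619 and 0.735 in heart, kidney and tail cells). Without KFs replicate 2 it was called lower in kidney cells (-2.09, adjusted p = 0.027). In HFs and KFs the library with the lowest *Ptprc* count, HFs replicate 1 and KFs replicate 3, also had the lowest class II level. In TFs the *Ptprc* levels were 4.12, 3.82 and 3.65 CPM, and the class II sums 14.3, 17.2 and 9.03 CPM in the same order. KFs replicate 3 had 13.5 CPM of macrophage and monocyte markers and no count of *Adgre1* or *Itgax*, and its class II sum of 3.97 CPM was above the highest KFc library at 2.51. *Itgax*, which encodes CD11c of dendritic cells, had at most 1 count in TFc and 9, 16 and 5 in TFs, where it was called higher (adjusted p = 0.0444) but not when any 1 library other than TFs replicate 3 was left out (adjusted p 0.0728 to 0.133), and it had 23, 88 and 0 counts in KFs. The part of leukocyte RNA in the class II changes was not tested.

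**Figure D5:**
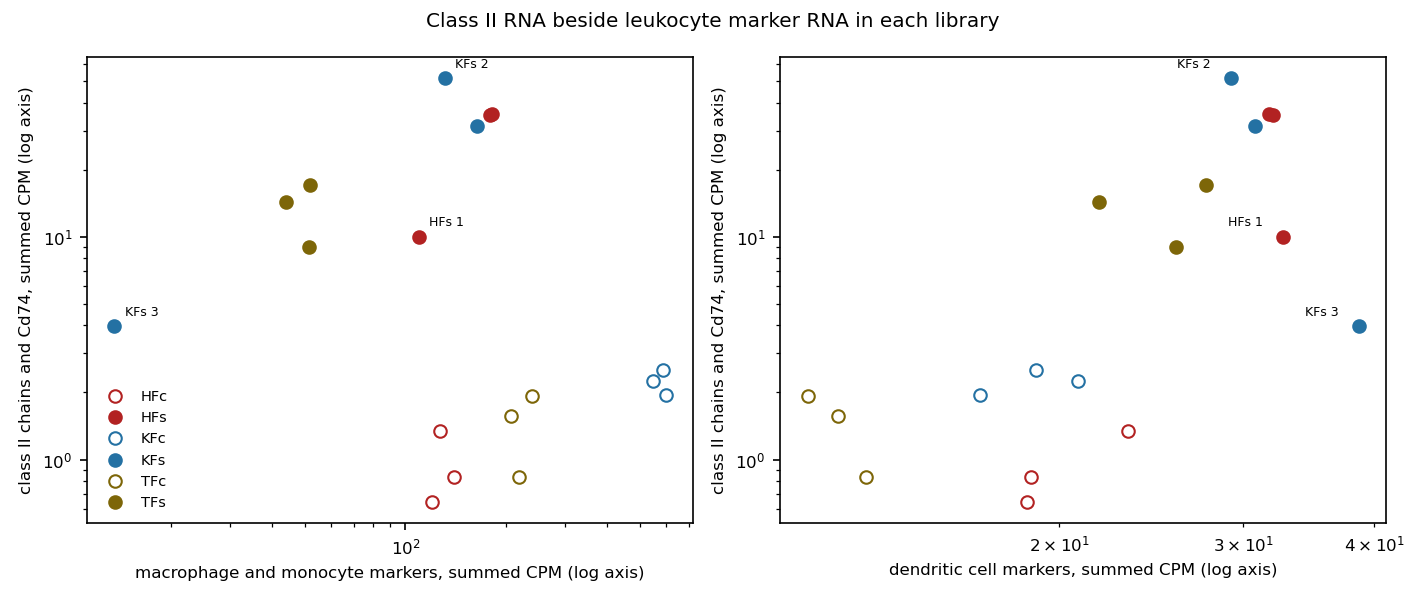
Summed level of *H2-Aa*, *H2-Ab1*, *H2-Eb1* and *Cd74* in each library against the summed level of 14 macrophage and monocyte markers (left) and of 8 dendritic cell markers (right), in CPM on log axes. Open points are cultured and filled points transplanted libraries. All 9 transplanted libraries lie above the 9 cultured libraries in class II RNA, and KFs replicate 3, with the fewest macrophage markers, is the lowest of them.

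The 8 dendritic cell markers summed to 18.6 to 23.3 CPM in HFc, 16.8 to 20.9 in KFc and 11.5 to 13.1 in TFc, and to 31.7 to 32.7 in HFs, 29.2 to 38.7 in KFs and 21.8 to 27.6 in TFs. Of 5 tested, 1 rose in heart, 1 in kidney and 2 in tail cells, the last 1 without TFc replicate 2 or TFs replicate 2. The heart and kidney counts are near the 18.3% and 14.7% of all genes called higher. Most of this sum came from *Zbtb46* (37.5%), *Siglech* (33.7%) and *Xcr1* (21.8%), whereas *Clec9a* had at most 5 counts and *Cd209a* at most 1 in any library. The defining B cell genes *Cd79b* and *Ms4a1* had no counts in the 9 cultured libraries and at most 1 and 4 in the transplanted ones, and *Pax5* made up 97.9% of the B cell sum of 12.3 to 16.8 CPM in HFs, 7.47 to 15.4 in KFs, 6.18 to 6.40 in TFs and at most 2.40 in culture. *Pax5* was the only one of the 5 tested, and it was called higher in each organ. Of the T cell genes, *Cd3e* and *Cd3g* had no counts in culture and at most 3 and 1 in grafts, whereas *Cd3d* had up to 44 counts in culture and 163 in grafts and *Cd8a* up to 12 and 36, with no library of either at 0. *Cd3d* made up 79.3% and *Cd8a* 15.9% of the T and NK cell sum, which was 4.75 to 8.13 CPM in HFs, 3.08 to 5.93 in KFs, 4.67 to 5.27 in TFs and at most 1.54 in culture. Of 2 T and NK cell genes tested, 2 rose in heart, 1 in kidney and 2 in tail cells, the last 1 without TFc replicate 1, TFc replicate 3 or any 1 of the TFs libraries. Endothelial markers summed to 24.1 to 66.1 CPM in grafts and 34.7 to 42.5 in culture, with 5 of 6 higher in heart, 3 higher and 1 lower in kidney and 3 higher in tail cells, and *Pecam1* was not called in any organ. *Tie1*, with at most 1 count in any cultured library, passed the filter through the grafts alone, so a call of it should not be read as support. In kidney the count of higher endothelial markers was 1 without KFc replicate 2, KFc replicate 3 or KFs replicate 1, and that of lower ones was 0 without KFs replicate 3, KFs replicate 2 or KFc replicate 3 and 2 without KFs replicate 1.

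Proximal tubule markers summed to 63.4 to 948 CPM in HFs, 46.1 to 93.9 in KFs and 89.1 to 260.2 in TFs, against 19.4 to 19.8 in HFc, 95.3 to 102 in KFc and 13.5 to 16.1 in TFc, and kidney epithelium markers were at 3.79 to 15.9 in HFs, 23 to 236 in KFs and 3.91 to 12 in TFs, against 2.51 to 3.28 in HFc, 37.1 to 45.3 in KFc and 4.78 to 5.02 in TFc. Of 7 tubule markers 7 rose in heart, 6 in kidney and 7 in tail cells, and of 6 epithelium markers 3 rose and 1 fell in heart, 1 rose in kidney, and 4 rose and 1 fell in tail cells. The tubule markers *Kap*, *Slc34a1*, *Slc22a6*, *Slc5a12* and *Miox* had at most 5 counts in any cultured library. They passed the filter on low counts through the grafts alone, so their calls should not be read as support. Without KFs replicate 3, 3 epithelium markers fell in kidney cells, and the 1 that rose was not called when any 1 KFc library was left out. In tail cells 1 to 2 rose when any 1 of the 6 libraries was left out, and the 1 that fell was not called without TFs replicate 2. Of the fibroblast markers, *Col1a1* and *Pdgfra* were present in every library, and the 9 markers summed to 15281 to 21017 CPM in culture, 75241 to 125375 in HFs and 33176 to 40289.5 in TFs. KFs replicate 3 stood apart here too, at 19722 CPM against 94971 and 71804 in KFs replicates 1 and 2. Of 9 fibroblast markers, 6 rose and 2 fell in heart, 6 rose in kidney, and 5 rose and 1 fell in tail cells. The part of tubule or epithelial RNA in the levels of the members was not tested. Without HFs replicate 2, which had the most tubule RNA, 9 members were called in heart cells, and the other two HFs libraries also had more of it than any HFc library.

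Over the 18 libraries, which share group, depth and scaling, Pearson's r of log2 CPM between pairs of class I members was 0.73 to 0.95, between pairs of class II members 0.74 to 0.95, and between the classes 0.11 (*B2m* with *H2-Eb1*) to 0.90 (*H2-T23* with *H2-Aa*). Among the 5 genes outside the members whose profile was most like the mean class I profile were *Gm43302* (r = 0.97), *F830016B08Rik* (0.96), *Dhx58* (0.96) and *Irf7* (0.96). *Dhx58* encodes a sensor of viral RNA, and *Irf7* encodes a transcription factor of the interferon response. Most like the mean class II profile were *Ednrb* (r = 0.98), *Ccr2* (0.97), *Gm1966* (0.96), *Egln3* (0.95) and *Zfp532* (0.95). *Ednrb* encodes an endothelin receptor, *Ccr2* a chemokine receptor of monocytes and *Egln3* an oxygen-sensing hydroxylase. Without KFs replicate 3, r of the named genes was 0.96 to 0.98. These values are descriptions, since libraries of one group are not independent in condition.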

How the data were processed

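Fibroblast RNA was measured in 18 libraries made with a stranded total RNA kit and sequenced as single-end reads of 75 bases. The authors trimmed reads by quality, mapped them to GRCm38 using RSEM (Bowtie2 alignments, reverse strand setting), and the deposited values are expected counts for each Ensembl gene, already whole numbers and not normalized. The labels name the build mm9 instead, and coordinates here follow GRCm38. The annotation release behind the counts is not given in the sources used here.

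The quasi-likelihood test of edgeR 4.0.16 (R 4.3.3), with filterByExpr, TMM factors, glmQLFit and glmQLFTest, was fitted to all 18 libraries, with 1 mean per group and Benjamini-Hochberg adjustment over 16577 genes. The script was tested on simulated data. The biological coefficient of variation was 0.24. Transplant calls needed an adjusted p under 0.05 and a log2 fold change beyond 1, and organ and response calls the adjusted p alone. Floors of 3 counts cover counting error only. Replicates of a group differed beyond sampling noise in every pair. Members and lists were chosen with earlier results of these data known. Named pathway genes were 8 given regulators and up to 3 per list called in most organs, ties broken by mean CPM. Symbols and exon lengths came from GENCODE release 21, and 160 of 163 listed genes were matched. Summaries used Python 3.11.15, numpy 2.4.6, scipy 1.17.1 and pandas 2.3.3, and figures matplotlib 3.10.9. Alternatives were DESeq2 1.42.0, its size factors, library size alone, no filter, a mean of at least 10 counts, a replicate block, only the groups compared and each library left out. Those for the pathway and marker lists were added after the data were seen. Some of the listed genes are not reported here.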

Additional observations from a re-analysis of the deposited data

Results flagged for a closer look

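The response to transplantation differed between organs, by the interaction contrast of edgeR's quasi-likelihood test, for 11 pairs of a member and a contrast, on the log2 scale with SE. Between kidney and tail cells (kidney minus tail) these were -1.60 ± 0.28 for *H2-K1*, -2.18 ± 0.29 for *H2-D1*, -0.81 ± 0.18 for *H2-T23*, -2.27 ± 0.25 for *B2m* and -0.89 ± 0.22 for *Tapbp*. Between heart and kidney cells (heart minus kidney) they were 1.16 ± 0.28 for *H2-K1*, 1.45 ± 0.29 for *H2-D1*, 0.79 ± 0.18 for *H2-T23* and 0.67 ± 0.22 for *Tapbp*. Between heart and tail cells (heart minus tail) they were -1.77 ± 0.25 for *B2m* and 3.38 ± 0.95 for *H2-Eb1*. As counts, 1 lower and 1 higher of 10 members are near the 12.7% and 10.1% of all genes called in that contrast. The 3 contrasts share libraries. KFs replicate 3 enters those with kidney cells directly, and every contrast through the spread estimated over all 18 libraries. Without it each of the 9 calls with kidney cells was made again. The heart and tail contrast was refitted without it only in the fit of these groups alone, where 4 members were called.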

How the results depend on the processing

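No called log2 fold change of a member changed sign under any of the alternatives run. Over the fits other than those that leave out a library, 791 log2 fold changes of members stayed on their side of the threshold, 16 lost a call and 9 gained one. Counts of members called moved by over 1.5 times in 3 comparisons. In KFc against TFc the count was 2, and 5 when only these groups were fitted. In HFc against KFc it was 4, and 2 with library size alone, with no filter and with a mean of at least 10 counts. In the response of heart against tail cells it was 2, and 4 when only the groups compared were fitted. The cause was not tested. With the minimum mean of 10 counts *Ciita* was not tested, and 8 members were called in heart and 5 in kidney grafts. The number of all genes called went from 4833 to 7508 in HFc against KFc, from 4819 to 1137 in KFs against TFs and from 5504 to 883 in HFs against KFs when only the groups compared were fitted. In the response of kidney against tail cells it went from 1835 to 3619 without KFs replicate 3 and to 1198 without TFc replicate 3, and in KFs against TFs to 3183 without TFs replicate 3. Scaling by library size alone moved the median of all genes from -0.03 to -0.25 in HFs against TFs and from -0.04 to -0.25 in HFs against KFs, and the share of calls that were higher from 44.8% to 19.6% and 42.8% to 23%, and in HFc against TFc from 49.9% to 35.5% and in HFc against KFc from 52.0% to 40.6%. Leaving out 1 library gave 1 member called in KFc against TFc, 1 to 2 in HFc against KFc, 1 to 4 in HFs against TFs, and 6 to 7 in KFs against KFc, against 9 in every such fit of HFs against HFc and 8 in every one of TFs against TFc. Same-numbered libraries of 2 groups did not deviate together (r of residuals -0.139 to 0.0792). With 3 libraries per group this cannot show whether the replicate number pairs libraries. In a fit with that number as a replicate block, 9, 7 and 8 members were called in heart, kidney and tail grafts, as without it, and the calls of *H2-Ab1* in HFc against KFc and *H2-D1* in HFs against TFs were lost (adjusted p = 0.0544 and 0.0501). At this depth *H2-Aa* and *Ciita* could not be detected in most cultured libraries, so the folds of *H2-Aa* in the 3 organs and of *Ciita* in heart and kidney are lower bounds. Of the list counts, with only the groups compared, type I interferon genes that rose in kidney went from 6 to 3 and higher endothelial markers there from 3 to 0, and *Ifit1*, *Vsir* and *H2-DMb2* were not called in kidney. With library size alone the transcription genes that rose in heart went from 5 to 3, and *Nlrc5* and *Psmb10* were not called there.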
